A study of Homo sapiens with 24 samples.

Results

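The lysosomal cathepsins and IFI30 were followed as 10 genes, *CTSS*, *CTSB*, *CTSD*, *CTSL*, *CTSH*, *CTSZ*, *CTSC*, *CTSO*, *LGMN* and *IFI30*. They are the rows whose Ensembl identifiers map to these symbols, 10 of the 39321 rows of the table of read counts, and were chosen by name with earlier results of these data known. All 10 had counts in A498-labelled libraries and 9 in 786-O-labelled ones, where *CTSH* was at 0 in all 12 libraries and was treated as not measured.

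RNA was sequenced from 24 libraries of A498 and 786-O, both established human lines of clear cell renal cell carcinoma grown without other cells. The spelling is that of the study's methods. In a check of chromosome-specific genes in which the lines are known to differ, 24 of 24 libraries went against their line label. Exchanged line names would give this result. A 786-O-labelled library without counts for any of these genes would also go against its label, and whether this applied was not tested. Groups were kept as labelled, and A498-labelled and 786-O-labelled cells mean the label and not an established identity. Comparisons within a line do not use the name, and a difference between the lines would change its sign if the names were exchanged. In each line, cells that carried control siRNA (Cnsi) or a pool of siRNAs against PD-L1 (PD-L1si), both at 20 nM, were left without IFNγ (groups Cnsi and PD-L1si) or received IFNγ at 50 ng/mL for 24 h, starting 24 h after transfection (groups named with IFNγ after the siRNA), with 3 libraries per group. Every group was transfected, and the labels call the PD-L1si cells a knockout although the methods of the study describe siRNA. No source states that the 3 libraries of a group came from separate cultures, so the p-values measure the spread between these libraries, which may be technical. The lines were sequenced on different instruments, so that line and instrument cannot be told apart and levels were compared within a line. In bulk RNA, fewer expressing cells and less RNA per cell cannot be told apart.

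The libraries held 19256316 to 30350461 counts. *CD274*, the gene of PD-L1, fell with PD-L1si in both lines, from 5.07 ± 0.95 to 0.92 ± 0.10 CPM (mean ± SD, n = 3; counts scaled to library size by TMM) without IFNγ in A498-labelled cells and from 4.08 ± 0.18 to 1.52 ± 0.35 CPM in 786-O-labelled cells. Under IFNγ it remained detectable at 27.7 ± 0.8 against 194 ± 5 CPM in A498-labelled cells and at 31.4 ± 1.2 against 60.4 ± 5.1 CPM in 786-O-labelled cells. Of 8 renal markers, all had counts in A498-labelled cells and 6 in 786-O-labelled cells, where *PAX2* and *NNMT* were at 0 in every library. These and *CTSH* are among 1475 rows with more than 1000 counts in A498-labelled cells and none in 786-O-labelled cells, against 35 rows the other way. For leukocytes, which carry much *CTSS* and *IFI30*, 6 of 9 markers could be used. *PTPRC* reached at most 1 count in a library of A498-labelled cells and 3 in 786-O-labelled cells, and *LYZ* at most 3 and 4, while *CSF1R* was at 0 in 786-O-labelled cells. The summed leukocyte markers lay at 0.503 to 1.09 CPM in A498-labelled cells. In 786-O-labelled cells they lay at 5.21 to 8.22 CPM without IFNγ and 12.3 to 13.5 CPM with it, nearly all of it *ITGAM* (3.96 to 12.2 CPM), so in that line this list moved with IFNγ along with the cathepsins, and its part in their changes was not tested.

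Cathepsins are the main proteases of lysosomes. They are made as inactive precursors, carried from the Golgi to the lysosome largely by mannose 6-phosphate receptors, and cleaved to active enzymes at acid pH. In antigen-presenting cells they trim proteins and the invariant chain CD74 to the peptides that MHC class II molecules display, and IFNγ is known to raise *CTSS* and *IFI30* there; in the kidney, lysosomes of the proximal tubule, the origin of clear cell carcinoma, digest protein taken up from the filtrate. *CTSS*, *CTSB*, *CTSL*, *CTSH*, *CTSZ*, *CTSC* and *CTSO* encode cysteine proteases of the papain family, *CTSD* an aspartic protease and *LGMN* legumain, a cysteine protease that cuts after asparagine. *IFI30* encodes GILT, a thiol reductase that opens disulfide bonds of proteins in the endocytic path.

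Promoter sequence was taken from RefSeq (GRCh38.p14), which matched 6 of the 10 members, *CTSD*, *CTSL*, *CTSH*, *CTSZ*, *CTSC* and *IFI30*; *CTSS*, *CTSB*, *CTSO* and *LGMN* were not matched. The 250 bases before the start were searched on both strands for GAAANNGAA, a core of interferon-stimulated response elements, and for CACGTG, the E-box bound by the TFEB family that governs lysosomal genes. The former was found in 6.89% of 34788 distinct promoter windows of this length and the latter in 6.31%. None of the 6 windows held the interferon element, so no match overlapped another. The windows of *CTSD* and *IFI30* each held 1 CACGTG, beginning 47 and 216 bases before the start, and those of the other 4 held none. The windows that hold the E-box are shown with it in capitals, followed by those of *CTSC* and *CTSZ* as the members whose IFNγ effect differed between the lines, which have no match. They lie at chr11:1763928-1764177 (minus strand), chr19:18173563-18173812 (plus strand), chr11:88337737-88337986 (minus strand) and chr20:59007255-59007504 (minus strand).
CTSD: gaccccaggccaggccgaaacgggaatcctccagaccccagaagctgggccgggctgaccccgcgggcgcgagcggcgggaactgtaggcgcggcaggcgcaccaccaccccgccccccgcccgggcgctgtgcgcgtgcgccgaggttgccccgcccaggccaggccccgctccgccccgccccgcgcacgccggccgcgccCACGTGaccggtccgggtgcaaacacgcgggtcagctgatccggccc
IFI30: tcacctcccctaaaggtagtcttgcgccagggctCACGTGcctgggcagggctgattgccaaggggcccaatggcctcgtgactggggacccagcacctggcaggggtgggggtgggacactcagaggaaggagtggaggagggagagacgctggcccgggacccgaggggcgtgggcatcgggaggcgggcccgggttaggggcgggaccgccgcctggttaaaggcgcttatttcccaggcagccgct
CTSC: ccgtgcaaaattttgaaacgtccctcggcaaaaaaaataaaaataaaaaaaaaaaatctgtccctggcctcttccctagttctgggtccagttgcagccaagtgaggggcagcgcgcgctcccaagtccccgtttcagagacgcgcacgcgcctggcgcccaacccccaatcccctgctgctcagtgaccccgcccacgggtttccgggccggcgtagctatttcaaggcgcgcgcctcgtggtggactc
CTSZ: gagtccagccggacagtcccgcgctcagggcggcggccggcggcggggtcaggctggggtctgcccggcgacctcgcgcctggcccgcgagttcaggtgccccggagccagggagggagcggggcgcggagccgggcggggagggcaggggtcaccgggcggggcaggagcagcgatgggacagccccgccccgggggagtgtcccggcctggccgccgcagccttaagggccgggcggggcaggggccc

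Without IFNγ, *CTSD* was the most abundant member in both lines. Per kb of the canonical transcript, the Cnsi libraries of A498-labelled cells held 655 ± 9 CPM of *CTSD* (mean ± SD, n = 3), 482 ± 6 of *CTSZ*, 127 ± 2 of *CTSL*, 121 ± 6 of *CTSC* and 112 ± 1 of *CTSB*. *LGMN* followed at 47.8 ± 2.3, *CTSH* at 13.7 ± 0.1, *CTSS* at 6.03 ± 0.19 and *CTSO* at 4.29 ± 0.10 CPM per kb, and *IFI30* had no count. *CTSL* and *CTSC* were neighbours in this order that did not differ beyond their spread. In 786-O-labelled cells the order was *CTSD* (622 ± 8 CPM per kb), *CTSL* (244 ± 3), *CTSZ* (212 ± 6), *CTSB* (175 ± 5), *CTSC* (126 ± 3), *LGMN* (16.0 ± 1.2), *CTSO* (14.9 ± 0.6), *CTSS* (8.63 ± 0.18) and *IFI30* (0.090 ± 0.082), with *LGMN* and *CTSO* not apart beyond their spread. With IFNγ, *CTSZ* was first in the A498-labelled Cnsi cells, at 916 ± 62 CPM per kb against 785 ± 31 for *CTSD*. When all annotated exons were merged for the length, *CTSD* was first in every group. By that length *CTSB* took the second place in the Cnsi libraries of A498-labelled cells, with 39.6 CPM per kb against 37.4 for *CTSZ*. Of the canonical *CTSD* transcript, 62.1% is shared with other genes on the same strand, and the effect of this on its level was not tested.

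**Figure D1:**
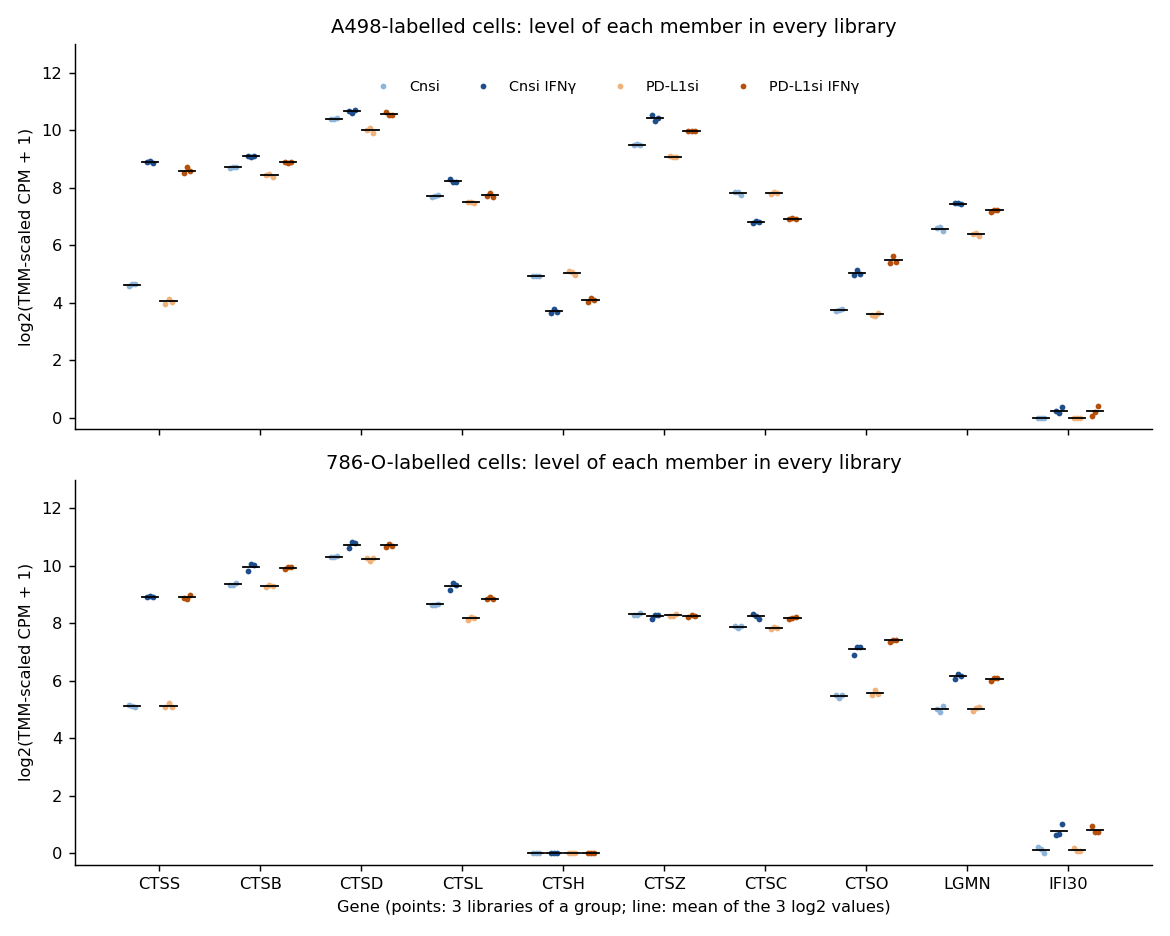
Level of each of the 10 members in all 24 libraries, as log2(TMM-scaled CPM + 1) with 3 points per group and a line at their mean, A498-labelled cells above and 786-O-labelled cells below. The scale is not per length, so heights compare groups of a gene and not genes. *CTSS* stands far higher in the IFNγ groups of both lines, *CTSC* is lower with IFNγ in A498-labelled cells and slightly higher in 786-O-labelled cells, and *CTSH* is at 0 in 786-O-labelled cells.

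IFNγ raised *CTSS*, *CTSO* and *LGMN* in both lines and lowered *CTSC* and *CTSH* in A498-labelled cells. The comparison of IFNγ with no IFNγ asks how the cytokine shifts expression in cells with normal and with lowered PD-L1. A gene was counted as changed at an adjusted p under 0.05 in the edgeR quasi-likelihood test, corrected over all genes tested, and a change of more than 0.5 on the log2 scale, up or down. *IFI30* had fewer than 10 counts in every group without IFNγ and entered the test only through its IFNγ groups, so it could be called only by rising and is counted apart. Of the other 9 members in A498-labelled cells, 5 rose and 2 fell in Cnsi cells, where 36.8% of all genes tested were called (18.2% higher and 18.5% lower). In PD-L1si cells 5 rose and 2 fell as well, where 33.5% of all genes were called (17.6% higher and 15.9% lower). In 786-O-labelled cells, 5 of the other 8 members rose and none fell, in Cnsi cells, where 18.5% of all genes were called (11.1% higher and 7.39% lower), and in PD-L1si cells, where 18.4% were called (11.0% higher and 7.45% lower). The median log2 fold change of these members in Cnsi cells was 0.51 in A498-labelled cells and 0.64 in 786-O-labelled cells, beside -0.03 and 0.0049 over all genes tested.

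*CTSS* (ENSG00000163131, chr1:150730079-150765957, minus strand, GRCh38), the protease that makes the last cuts of the invariant chain, rose most among the members with counts in every library. In A498-labelled Cnsi cells it was at 22.9, 24.4 and 23.8 CPM without and 471, 487 and 462 CPM with IFNγ, and in PD-L1si cells at 14.6, 16.6 and 15.4 CPM without and 362, 421 and 378 CPM with it. The 786-O-labelled libraries gave 34.6, 34.2 and 33.2 CPM without and 481, 490 and 486 CPM with IFNγ in Cnsi cells, and 33.02, 36.1 and 33.4 against 469, 458 and 504 CPM in PD-L1si cells. No treated library came near an untreated one in either line. The log2 fold changes in Cnsi cells were 4.32 ± 0.06 in A498-labelled cells (standard error; 20.0-fold; adjusted p = 4.7e-37) and 3.84 ± 0.05 in 786-O-labelled cells (14.3-fold; adjusted p = 8.9e-27). In PD-L1si cells they were 4.64 ± 0.06 and 3.80 ± 0.05. *CTSS* thereby rose from the 8th to the 5th place per kb of canonical transcript in A498-labelled cells and to the 6th in 786-O-labelled cells, and from 0.384% to 5.20% and from 0.609% to 6.02% of the summed level per kb of the 10 members in Cnsi cells.

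*CTSO* (ENSG00000256043, chr4:155921580-155953912, minus strand), a cysteine cathepsin whose substrates are little known, rose from 12.1, 12.6 and 12.6 CPM to 30.6, 34.5 and 30.9 CPM in A498-labelled Cnsi cells and from 44.2, 41.5 and 44.4 CPM to 118, 145 and 144 CPM in 786-O-labelled cells. The treated libraries lay above all untreated ones, and the log2 fold changes were 1.36 ± 0.07 and 1.64 ± 0.07 (adjusted p = 3.8e-18 and 9.8e-16). *LGMN* (ENSG00000100600, chr14:92703807-92748679, minus strand), which also activates other cathepsins, went from 95.02, 99.1 and 90.1 CPM to 174, 175 and 172 CPM in A498-labelled cells and from 31.7, 29.3 and 34.2 CPM to 66.2, 74.7 and 71.4 CPM in 786-O-labelled cells. The groups did not overlap, with log2 fold changes of 0.87 ± 0.04 and 1.16 ± 0.06 (adjusted p = 4.0e-19 and 2.6e-14).

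The broad endopeptidases moved less. *CTSL* (ENSG00000135047, chr9:87724051-87731469, plus strand) went from 206, 209 and 213 CPM to 313, 290 and 291 CPM in A498-labelled Cnsi cells and from 400, 399 and 409 CPM to 577, 682 and 643 CPM in 786-O-labelled cells. The changes of 0.51 ± 0.04 and 0.65 ± 0.05 both passed the threshold, the former only just: without the first Cnsi library or the first Cnsi IFNγ library it was 0.49 and 0.48. In A498-labelled PD-L1si cells the change of *CTSL* was 0.25 ± 0.04 and did not pass. *CTSB* (ENSG00000164733, chromosome 8), an endopeptidase and carboxypeptidase, passed in 786-O-labelled cells, from 644, 637 and 674 CPM to 903, 1061 and 1042 CPM (0.62 ± 0.05; adjusted p = 3.2e-10). In A498-labelled cells it was at 413, 419 and 417 CPM without and 553, 535 and 544 CPM with IFNγ, a difference of 0.38 ± 0.04 below the threshold of size though larger than the spread of the libraries.

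*CTSD* (ENSG00000117984, chr11:1752752-1764573, minus strand), the aspartic protease, was at 1328 to 1366 CPM without and 1552 to 1680 CPM with IFNγ in A498-labelled Cnsi cells, a log2 difference of 0.26 ± 0.04, and passed the threshold only in A498-labelled PD-L1si cells (0.56 ± 0.04; adjusted p = 2.3e-14). In 786-O-labelled cells the differences were 0.42 ± 0.05 and 0.47 ± 0.05, of which the latter reached 0.50 and passed without the first PD-L1si IFNγ library. An opposite-strand gene, *PRADX*, shares exon bases with *CTSD* and held 24.4% to 31.4% as many counts. Its differences with IFNγ were 0.35 ± 0.04 and 0.55 ± 0.04 in the A498-labelled Cnsi and PD-L1si cells, close to those of *CTSD*, and whether the counting separated their reads was not tested. With the counts of *CTSD*, *PRADX* and a same-strand readthrough gene summed, the *CTSD* differences in A498-labelled cells were 0.28 and 0.56.

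Among the exopeptidases, *CTSZ* and *CTSC* responded differently in the lines, with the test of that difference given after the members. *CTSZ* (ENSG00000101160, chr20:58985686-59008238, minus strand), a carboxypeptidase, rose in A498-labelled cells from 719, 735 and 720 CPM to 1467, 1281 and 1381 CPM in Cnsi cells and from 543, 533 and 530 CPM to 994, 1008 and 1009 CPM in PD-L1si cells. The treated libraries lay above all untreated ones (0.93 ± 0.04 and 0.91 ± 0.04; adjusted p = 1.2e-20 and 2.9e-20). In 786-O-labelled cells the Cnsi libraries were at 312, 314 and 329 CPM and the Cnsi IFNγ libraries at 284, 311 and 308 CPM, a difference of -0.08 ± 0.05 that did not pass. *NELFCD*, an opposite-strand neighbour that shares 31.7% of the merged *CTSZ* exons but none of its canonical transcript, fell in A498-labelled cells (-0.64 ± 0.04), and with both genes summed the change of *CTSZ* there was 0.77 in Cnsi cells.

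*CTSC* (ENSG00000109861, chr11:88265069-88359684, minus strand), the dipeptidyl peptidase that activates serine proteases of cytotoxic granules, fell in A498-labelled cells from 232, 232 and 212 CPM to 108, 114 and 111 CPM in Cnsi cells and from 218, 231 and 224 CPM to 119, 122 and 121 CPM in PD-L1si cells. The groups were far apart, at -1.02 ± 0.04 and -0.89 ± 0.04 (adjusted p = 2.7e-21 and 1.7e-19). In 786-O-labelled cells it was at 236, 228 and 240 CPM in Cnsi and 317, 304 and 283 CPM in Cnsi IFNγ libraries, a difference of 0.36 ± 0.05 under the threshold of size. *CTSH* (ENSG00000103811, chr15:78921058-78949574, minus strand), an aminopeptidase, fell in A498-labelled cells from 29.3, 29.4 and 29.6 CPM to 11.6, 12.8 and 11.8 CPM in Cnsi cells (-1.28 ± 0.07; 2.43-fold lower; adjusted p = 1.1e-18) and from 33.2, 32.2 and 30.1 CPM to 15.2, 17.0 and 15.9 CPM in PD-L1si cells (-0.99 ± 0.06). All treated libraries were below all untreated ones.

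The counts of *IFI30* (ENSG00000216490, chr19:18173162-18178117, plus strand) stayed near the limit of detection in both lines. A498-labelled cells gave no count in any of the 6 libraries without IFNγ, 4, 3 and 6 counts in Cnsi IFNγ and 1, 3 and 7 counts in PD-L1si IFNγ. With a floor of 3 counts over the 3 untreated libraries, which covers counting error only, the level was at least 4.63-fold higher with IFNγ in Cnsi cells and at least 4.70-fold higher in PD-L1si cells. The libraries of 786-O-labelled cells held 5, 3 and 0 counts in Cnsi, 15, 16 and 26 in Cnsi IFNγ, 4, 2 and 2 in PD-L1si and 24, 20 and 19 in PD-L1si IFNγ, with log2 fold changes of 2.92 ± 0.50 and 3.04 ± 0.49 (adjusted p = 3.7e-05 and 1.8e-05). The highest library held 1.02 CPM, against 504 CPM for *CTSS*. The whole canonical transcript of *IFI30* is shared with a readthrough gene on the same strand that held 0 to 2 counts. The counting settings listed by the paper name no option to count a read for both genes. If reads common to both were left out, the level of *IFI30* is understated in every library. How the counting assigned these reads was not tested.

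**Figure D2:**
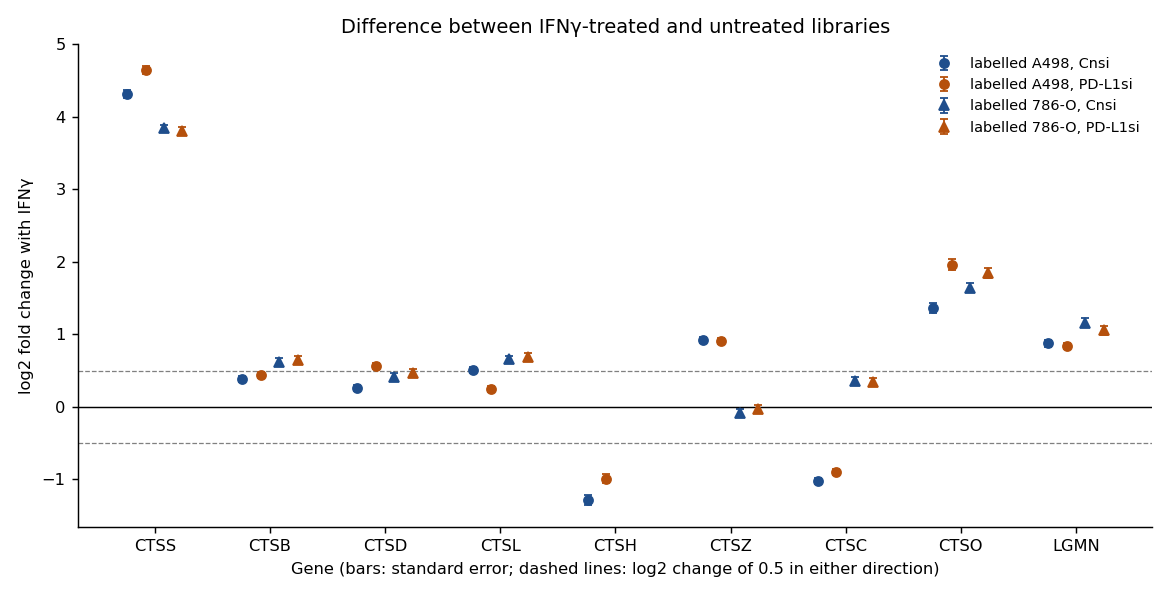
Log2 fold change with IFNγ for 9 members (bars, standard error; circles A498-labelled cells, triangles 786-O-labelled cells; blue Cnsi, orange PD-L1si; dashed lines, the threshold of 0.5). *CTSS* lies near 4 in all 4 contrasts, while *CTSC* lies at -1.02 in A498-labelled cells and 0.36 in 786-O-labelled cells and *CTSZ* at 0.93 and -0.08 in Cnsi cells. *IFI30* is left out because A498-labelled cells had no untreated count, and *CTSH* has no 786-O-labelled point.

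The difference between the lines was tested directly, as the IFNγ effect of 786-O-labelled cells minus that of A498-labelled cells in a model of all 24 libraries. In Cnsi cells 2 of the 9 members measured in both lines passed the threshold, where 28.4% of all genes did. The 9 include *IFI30*, whose difference could not be well estimated because A498-labelled cells had no untreated count. *CTSC* differed by 1.37 ± 0.06 (adjusted p = 1.0e-20) and *CTSZ* by -1.01 ± 0.06 (adjusted p = 6.8e-17). In PD-L1si cells 3 of 9 passed, where 25.9% of all genes did: *CTSC* (1.23 ± 0.06), *CTSZ* (-0.93 ± 0.06) and *CTSS* (-0.84 ± 0.08; adjusted p = 1.4e-11). The difference of *CTSS* in Cnsi cells was -0.49 ± 0.08, just short of the threshold of size, and whether it passed turned on the processing. It passed at -0.54 with DESeq2 and with relative log expression, at -0.56 without a filter on low counts, and at -0.51 with the filterByExpr filter and with protein-coding genes only. It also passed at -0.51 in 7 of the 24 fits that left out 1 library, which were the second Cnsi, the third Cnsi IFNγ and each of the 3 PD-L1si libraries of A498-labelled cells and the second and the third Cnsi library of 786-O-labelled cells. By the adjusted p alone, 6 of 9 members differed between the lines in Cnsi cells, where 46.8% of all genes did, and 6 of 9 in PD-L1si cells, where 44.1% did. The differences of *CTSO* and *LGMN* were 0.27 ± 0.11 and 0.28 ± 0.07 in Cnsi cells and did not pass.

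**Figure D3:**
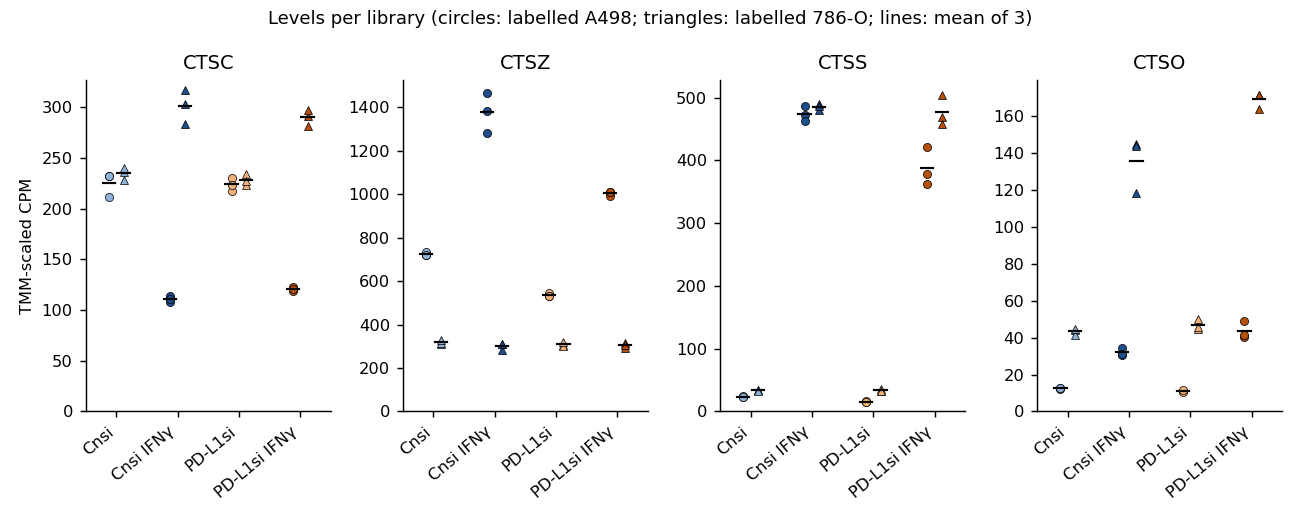
TMM-scaled CPM per library of *CTSC*, *CTSZ*, *CTSS* and *CTSO* in the 4 groups (circles A498-labelled cells, triangles 786-O-labelled cells, lines the mean of 3; each axis starts at 0). CPM were scaled within a line, so the change across groups and not the height is compared between lines. In the A498-labelled Cnsi cells the mean of *CTSC* falls from 225 to 111 CPM with IFNγ while that of *CTSZ* climbs from 725 to 1376 CPM, and in 786-O-labelled cells *CTSZ* stays between 284 and 329 CPM.

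With PD-L1si, 1 member passed the threshold in A498-labelled cells and none in 786-O-labelled cells. This comparison asks how expression differs with the siRNA pool against PD-L1, without IFNγ and under it. As only this pool was used, loss of PD-L1 and other effects of its siRNAs cannot be told apart. Without IFNγ, 1 of 10 members passed in A498-labelled cells, where 8.48% of all genes were called. The 10 include *IFI30*, which had no count in these libraries and could not be called. *CTSS* fell from 22.9, 24.4 and 23.8 CPM in Cnsi to 14.6, 16.6 and 15.4 CPM in PD-L1si libraries (-0.61 ± 0.07; 1.53-fold lower; adjusted p = 2.6e-09), and the groups did not overlap. By the adjusted p alone, 6 of the 10 were lower and none higher, where 30.8% of all genes passed in either direction. The 6 were *CTSS*, *CTSZ* (-0.44 ± 0.04), *CTSD* (-0.40 ± 0.04), *CTSB* (-0.27 ± 0.04), *CTSL* (-0.23 ± 0.04) and *LGMN* (-0.20 ± 0.04). Genes called in this contrast were mostly lower over the whole table as well: of 1773 past both limits, 601 were higher and 1172 lower. The summed level of the 10 members was 3075 to 3089 CPM in Cnsi and 2369 to 2517 CPM in PD-L1si libraries of A498-labelled cells.

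Under IFNγ, 0 of 10 members passed both limits in A498-labelled cells with edgeR, where 10.1% of all genes did. With DESeq2, 1 member (*CTSL*) passed, where 1780 genes of the whole table did. At an unadjusted p under 0.05 there were 9, a rule for which the share of all genes was not taken. At an adjusted p under 0.05 there were 8, 3 higher and 5 lower, where 34.1% of all genes were, in either direction. The differences were -0.49 ± 0.04 for *CTSL*, -0.46 ± 0.04 for *CTSZ*, -0.29 ± 0.04 for *CTSS*, -0.24 ± 0.04 for *LGMN* and -0.21 ± 0.04 for *CTSB*, and 0.44 ± 0.06 for *CTSO*, 0.41 ± 0.07 for *CTSH* and 0.12 ± 0.04 for *CTSC*. *CTSL* was at 313, 290 and 291 CPM in Cnsi IFNγ and at 208, 224 and 204 CPM in PD-L1si IFNγ libraries, so that the groups were apart by more than their spread. It passed the threshold at -0.50 with DESeq2, with relative log expression and without a filter on low counts, at -0.51 without the second or the third Cnsi IFNγ library and at -0.53 without the second PD-L1si IFNγ library. *CTSZ* passed at -0.51 without the second Cnsi IFNγ library.

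In 786-O-labelled cells, 0 of 9 members passed with edgeR, either without IFNγ, where 2.81% of all genes did, or under it, where 3.03% did. With DESeq2 also 0 passed, where 449 and 488 genes of the whole table did. At an unadjusted p under 0.05 there were 1 and 2, a rule for which the share of all genes was not taken. At an adjusted p under 0.05 there were also 1 and 2, where 12.8% and 14.0% of all genes were. *CTSL* was the member with the clearest difference: it was at 400, 399 and 409 CPM in Cnsi and 278, 294 and 291 CPM in PD-L1si libraries (-0.49 ± 0.05; adjusted p = 2.3e-07), and at 577, 682 and 643 against 454, 477 and 459 CPM under IFNγ (-0.45 ± 0.05; adjusted p = 7.0e-07). The libraries did not overlap in either state, and without the first Cnsi IFNγ library the second difference was -0.52 and passed. *CTSO* was 0.32 ± 0.06 higher under IFNγ, and *CTSS* differed by 0.01 ± 0.05 and -0.03 ± 0.05. *CTSL* was thus lower with PD-L1si in both lines with and without IFNγ, by 0.23 to 0.49 on the log2 scale, short of the threshold of size in each.

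**Figure D4:**
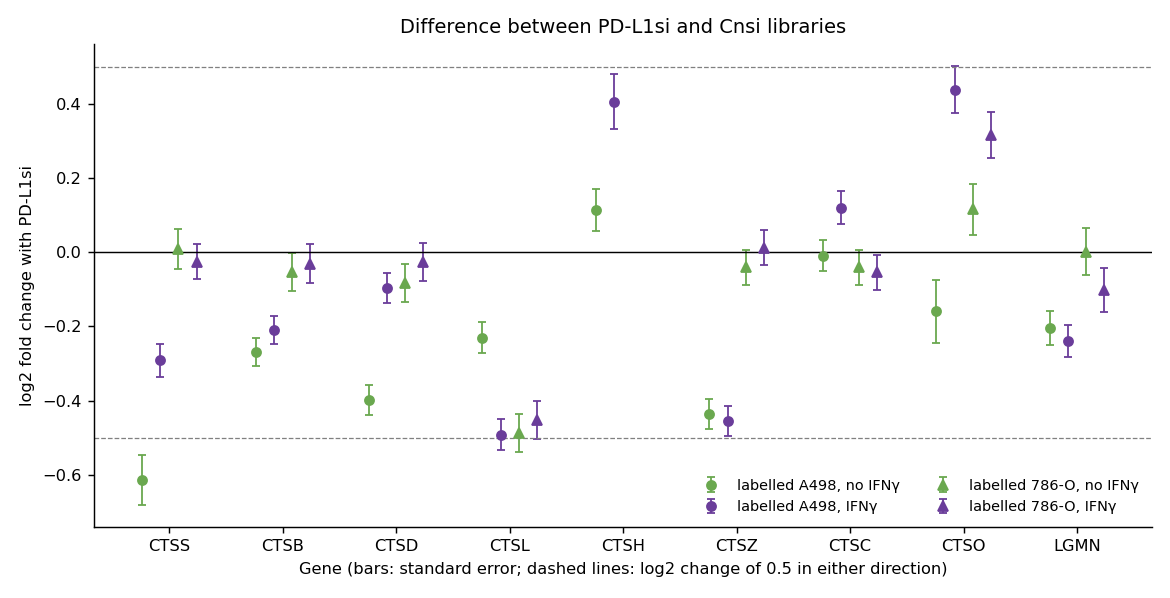
Log2 fold change of PD-L1si against Cnsi for 9 members (bars, standard error; circles A498-labelled cells, triangles 786-O-labelled cells; green without IFNγ, purple under IFNγ; dashed lines, the threshold of 0.5). Only *CTSS* without IFNγ in A498-labelled cells, at -0.61, lies beyond the dashed lines, and the 4 *CTSL* points all lie below 0, between -0.49 and -0.23. *IFI30* is left out for its low counts.

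The interaction asks whether PD-L1si changed the size of the IFNγ effect. In A498-labelled cells, 1 of 10 members passed, where 2.45% of all genes did. *IFI30* is among the 10 but had no count without IFNγ there, so its interaction had no usable estimate. *CTSO* rose by 1.36 ± 0.07 in Cnsi and by 1.96 ± 0.07 in PD-L1si cells, a difference of 0.60 ± 0.11 (adjusted p = 0.00014). Its PD-L1si IFNγ libraries were at 40.2, 48.9 and 41.5 CPM, all above the 30.6, 34.5 and 30.9 CPM of Cnsi IFNγ, while the PD-L1si and Cnsi libraries without IFNγ lay at 10.7 to 11.6 and 12.1 to 12.6 CPM. The interactions of *CTSS* (0.32 ± 0.08), *CTSD* (0.30 ± 0.06), *CTSH* (0.29 ± 0.09) and *CTSL* (-0.26 ± 0.06) were under the threshold of size, with adjusted p = 0.0068, 0.00042, 0.042 and 0.0029; by the adjusted p alone 5 of the 10 passed, where 9.08% of all genes did. In 786-O-labelled cells, 0 of 9 passed with edgeR, where 0.0990% of all genes did, and 0 with DESeq2, where 28 genes of the whole table did. The 1 member at an unadjusted p under 0.05 was *CTSO*, at 0.20 ± 0.09, with no share of all genes taken at that rule. With a limit of 1 on the log2 scale in place of 0.5, *IFI30* included, 5 and 3 members passed with IFNγ in A498-labelled Cnsi and PD-L1si cells, where 17.5% and 15.3% of all genes did, and 1 for the line difference in PD-L1si cells, where 10.7% did. None did with PD-L1si without IFNγ or for the interaction in A498-labelled cells, where 2.64% and 0.569% of all genes did.

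Other lysosomal genes were followed as lists, described by counts and medians over the IFNγ effect in Cnsi cells. Genes that reached 10 counts only in IFNγ groups or only in groups without it could be called in 1 direction alone and, except for the cystatins, were left out of these counts. Of the other lysosomal peptidases, 2 of 10 tested were lower and none higher in A498-labelled cells (median 0.03), *CTSV* (-1.38 ± 0.09), a close relative of *CTSL*, and *CTSK* (-0.79 ± 0.24), the collagen-cutting protease of osteoclasts. In 786-O-labelled cells, 3 of 10 were higher and 1 lower (median 0.34), among them *SCPEP1* (1.10 ± 0.06), from 125 ± 4 to 267 ± 31 CPM, and *NAPSA*, below 0.5 CPM on average. *CTSE*, also below 0.5 CPM, was left out. The cystatins, inhibitors of cysteine cathepsins, had 0 of 3 tested called in A498-labelled cells with edgeR and 0 of 2 in 786-O-labelled cells. In each line 1 was at an unadjusted p under 0.05, with no share of all genes taken, and 0 were called with DESeq2 (medians 0.39 and -0.44). The latter median joins *CST3* (0.18 ± 0.04) and *CST7* (-1.06 ± 1.08), which reached 10 counts only without IFNγ. Over cystatins that reached 10 counts in both states the medians were 0.23 (2 genes) and 0.18 (1 gene). Of the other hydrolases and their activators, 3 of 29 were higher and 5 lower in A498-labelled cells (median 0.03) and 3 of 24 higher in 786-O-labelled cells (median 0.11). The acid phosphatases *ACP5* (3.15 ± 0.11 and 1.95 ± 0.38) and *ACP2* (1.17 ± 0.06 and 1.58 ± 0.05) rose in both lines, and *SGSH* rose in A498-labelled cells (1.19 ± 0.06). In 786-O-labelled cells *ACP5* was near the floor, at 0.18 ± 0.04 CPM without and 0.72 ± 0.25 CPM with IFNγ. *GM2A*, whose product activates a lysosomal hexosaminidase, fell in A498-labelled cells (-0.999 ± 0.060) and rose in 786-O-labelled cells (0.55 ± 0.05), a line difference of 1.54 ± 0.08 that passed (adjusted p = 1.4e-19).

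Among lysosomal membrane proteins and the proton pump, 1 of 20 was higher and 2 lower in A498-labelled cells (median -0.06) and 3 of 17 higher in 786-O-labelled cells (median 0.15). *LAMP3*, a membrane protein of mature dendritic cells, was at 0.066 ± 0.023 and 4.64 ± 0.50 CPM in A498-labelled cells, where it is left out of the count, and rose from 0.169 ± 0.025 to 4.80 ± 0.38 CPM in 786-O-labelled cells. The pump subunit *ATP6V1B2* rose in A498-labelled cells (1.52 ± 0.04), where *ATP6V0A1* fell (-0.77 ± 0.06). The subunit *ATP6V1A* fell in A498-labelled cells (-0.74 ± 0.05) and rose in 786-O-labelled cells (0.91 ± 0.05), a line difference of 1.65 ± 0.07 that passed (adjusted p = 1.4e-21). *SCARB2* (0.58 ± 0.07), the receptor that carries glucocerebrosidase, rose in 786-O-labelled cells. Of the genes for sorting to the lysosome and its transcription factors, 2 of 9 were higher and 3 lower in A498-labelled cells (median -0.26): *MITF* (-2.05 ± 0.06), *SORT1* (-1.05 ± 0.06) and *GNPTAB* (-1.04 ± 0.05), which makes the mannose 6-phosphate tag. In 786-O-labelled cells 0 of 7 were called with edgeR (median -0.0090) and 0 with DESeq2. At an unadjusted p under 0.05 there were 4, with no share of all genes taken. The MHC class II list, whose products the cathepsins supply with peptide, had 7 of 8 higher in A498-labelled cells (median 3.14) and 10 of 11 in 786-O-labelled cells (median 4.19), with 7 and 3 further genes left out that reached 10 counts only with IFNγ. In A498-labelled cells *HLA-DRA*, *HLA-DRB1* and *HLA-DQB1* had no count in Cnsi libraries and 214 ± 12, 121 ± 3 and 74.8 ± 2.5 CPM with IFNγ. In 786-O-labelled cells *CD74* rose from 21.6 ± 1.7 to 2161 ± 183 CPM, while *HLA-DOA* and *HLA-DQA1*, also left out, were at 0.022 ± 0.019 and 0.012 ± 0.021 CPM without and 25.0 ± 1.8 and 2.25 ± 0.04 CPM with IFNγ.

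**Figure D5:**
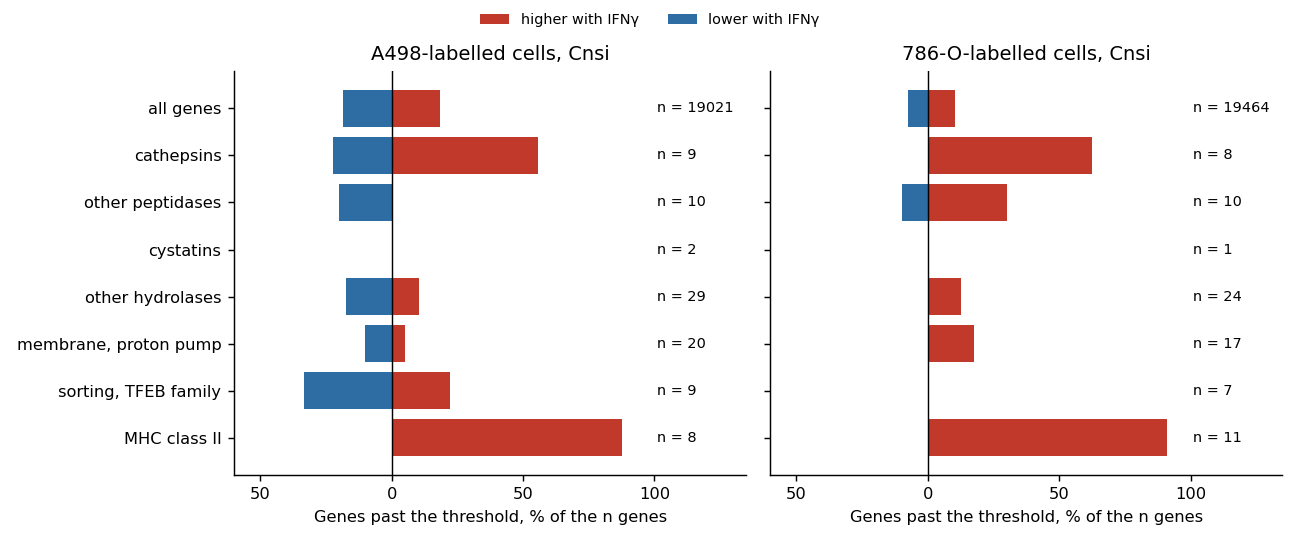
Share of genes that were higher (red, to the right) or lower (blue, to the left) with IFNγ in Cnsi cells, for all genes, the cathepsins and the 6 lists, A498-labelled cells left and 786-O-labelled cells right, over the n genes that reached 10 counts both in a group with and in a group without IFNγ. The cathepsins, without *IFI30*, stand at 5 of 9 higher and 2 lower in A498-labelled cells and 5 of 8 higher in 786-O-labelled cells, the class II list at 7 of 8 and 10 of 11, and all genes at 18.3% higher and 18.5% lower and at 10.2% higher and 7.63% lower. Cystatins, and in 786-O-labelled cells the sorting list, have no bar because none was called.

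The genes whose pattern lay closest to that of *CTSS*, by the root mean square difference of log2(CPM + 1) change from Cnsi over 6 group means and among 17278 genes, were *RTP4* (0.21), *TAP1* (0.23) and *LAP3* (0.23). On this scale *CTSS* changed by 4.26 in Cnsi IFNγ, by -0.58 in PD-L1si and by 3.97 in PD-L1si IFNγ libraries of A498-labelled cells, and *TAP1*, a subunit of the peptide transporter, by 4.13, -0.76 and 3.94. For *IFI30* the closest were *MVB12A*, *TEP1* and *PSMB2*, at differences of 0.049 to 0.073 among 17279 genes, on a scale where no change of *IFI30* exceeded 0.70.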

How the data were processed

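The members and gene lists were chosen with earlier results of these data known. The deposited values are raw counts per gene, without normalization, for which the authors trimmed reads with Trimmomatic 0.36.6, aligned them to GRCh38 with HISAT2 2.1.0 and counted exons of GENCODE genes with featureCounts 1.6.3 in a stranded mode. Gene symbols, positions and lengths came from a newer GENCODE annotation of this assembly (39148 of 39321 rows matched). Groups came from the sample labels, and 0 columns were without a sample. In the check of chromosome-specific genes, 24 of 24 libraries went against the line label, with the limit given above.

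Genes with at least 10 counts in 1 group were tested (20916 in A498-labelled cells, 21209 in 786-O-labelled cells, 17999 in both) with TMM scaling and the robust quasi-likelihood F-test of edgeR 4.0.16 in R 4.3.3, with 1 mean per group and Benjamini-Hochberg adjustment; standard errors are the absolute log2 fold change divided by the square root of F. Depth ran from 19256316 to 30350461 counts, and the biological coefficient of variation was 0.039 and 0.056. On simulated data all 100 genes changed by a log2 of 1 and all 100 changed by 2 were recovered in each line. Replicates differed by more than sampling noise (chi-square per degree of freedom, 1.63 to 24.3). The text names the 10 members, *CD274*, the 3 largest called changes per list and line, and the 3 closest patterns to *CTSS* and *IFI30*. Alternatives were DESeq2 1.42.0, relative log expression, other filters, protein-coding genes, other thresholds, another edgeR fit, fewer groups, a replicate block and each library left out.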

Additional observations from a re-analysis of the deposited data

Results flagged for a closer look

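These results were marked because the effect of IFNγ differed between the lines, or between the siRNAs, in a test of the difference itself (edgeR quasi-likelihood test with Benjamini-Hochberg adjustment over all genes). In Cnsi cells the effect in 786-O-labelled cells minus that in A498-labelled cells was 1.37 for *CTSC* (adjusted p = 1.0e-20) and -1.01 for *CTSZ* (adjusted p = 6.8e-17). In PD-L1si cells it was 1.23 for *CTSC* (adjusted p = 3.2e-19), -0.93 for *CTSZ* (adjusted p = 8.2e-16) and -0.84 for *CTSS* (adjusted p = 1.4e-11). In A498-labelled cells the IFNγ effect on *CTSO* was larger with PD-L1si by 0.60 (adjusted p = 0.00014).

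The line and the sequencing instrument cannot be told apart in the first 5 of these. In the last, the libraries of all 4 groups come from the same line.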

How the results depend on the processing

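Across 2676 alternative values of a member's log2 fold change, 2602 stayed on their side of the threshold, 18 fell short of it, 56 newly passed it and 0 called changes turned direction; 53 changed sign with neither value past the threshold. Counts of members here include *IFI30*, and the shares of all genes past the same limits with edgeR in the main fit stand beside the results. With the adjusted p alone, the number of members called with PD-L1si was 8 under IFNγ and 6 without it in A498-labelled cells and 2 and 1 in 786-O-labelled cells, with 5 for the interaction in A498-labelled cells and 6 for the line difference in Cnsi cells and 6 in PD-L1si cells. At a log2 fold change over 1, members called with IFNγ in A498-labelled cells were 5 in Cnsi and 3 in PD-L1si cells, 0 with PD-L1si without IFNγ, 0 for the interaction and 1 for the line difference in PD-L1si cells. PD-L1si under IFNγ in A498-labelled cells called 1 member (*CTSL*) with DESeq2, 1 with relative log expression and 1 without a filter on low counts. The cause of these shifts other than the thresholds' own construction was not tested. Leaving out 1 library at a time gave 7 to 8 and 8 to 8 members with IFNγ in A498-labelled Cnsi and PD-L1si cells, 6 to 6 and 6 to 7 in 786-O-labelled cells, 0 to 2 and 1 to 1 with PD-L1si under and without IFNγ in A498-labelled cells, 0 to 1 and 0 to 0 in 786-O-labelled cells, 1 to 1 and 0 to 0 for the interactions, and 2 to 3 and 3 to 3 for the line differences. The sums over overlapping genes were chosen after seeing the data, and they changed no call of *CTSD* or *CTSZ* within a line.

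The labels number the replicates 1 to 3 in every group. Deviations of libraries with the same number correlated at -0.096 to 0.25 (mean 0.050) in A498-labelled cells and at -0.32 to 0.27 (mean 0.028) in 786-O-labelled cells. With other numbers they correlated at -0.20 to 0.15 (mean -0.025) and at -0.43 to 0.41 (mean -0.014). The same-number means were slightly higher but the ranges overlapped, and the number was not used to pair libraries in the main fit. With the replicate block, the members called were 8, 8, 0, 1 and 1 in A498-labelled cells and 6, 6, 0, 0 and 0 in 786-O-labelled cells, in the order IFNγ in Cnsi, IFNγ in PD-L1si, PD-L1si under IFNγ, PD-L1si without IFNγ and interaction, and 2 and 3 for the line differences, all as without it. Genes called over the whole table with IFNγ in Cnsi cells went from 7688 to 7670 in A498-labelled cells and from 3914 to 3869 in 786-O-labelled cells.

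*IFI30* had at most 26 counts in a library. Whether depth or the reads shared with the readthrough gene held it there was not tested. The row of *CTSH* at 0 in 786-O-labelled cells was treated as not measured.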
